A study of Homo sapiens with 24 samples.

Results

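Neurons differentiated from LUHMES cells and exposed to 6-HD (6-hydroxydopamine) at 1 µM were compared with neurons that received the vehicle, DMSO, at 1%. The labels give a DMSO percentage for the DMSO libraries only. Whether the 6-HD cultures also held DMSO is not stated, so an effect of DMSO itself cannot be told apart. LUHMES cells are human midbrain precursors kept dividing by a transgene; tetracycline shuts it off, and the cells then become post-mitotic neurons of dopaminergic type. The comparison took the 3 libraries whose labels name 6-HD and the 3 whose labels name DMSO, 6 of the 24 libraries of the series, and every gene that passed an expression filter, 18852 of the 58051 in the count matrix. In both groups the neurons were differentiated with cyclic AMP and GDNF, the exposure lasted 6 h, and polyadenylated RNA depleted of ribosomal RNA was sequenced. The other 18 libraries, 3 each of 6 further toxicants, entered the model as a source of the spread between replicates. These were MS275, paraquat and MPP at 5 µM, ziram at 2 µM, methylmercury at 0.5 µM and rotenone at 1 µM, each for 6 h. Their levels of some genes are also described. Rotenone served for a direct comparison because its dose and time matched those of 6-HD. The neurons come from 1 cell line, and the labels describe the libraries as triplicate cultures.

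6-Hydroxydopamine is an analogue of dopamine that enters neurons through the dopamine transporter, oxidises to a quinone and releases hydrogen peroxide, which is why it is used to lesion dopaminergic neurons in animals. Cells meet oxidants with several transcription programmes. The NRF2 programme raises glutathione and thioredoxin enzymes. The unfolded protein response of the endoplasmic reticulum uses the sensors IRE1 (ERN1), ATF6 and PERK to raise chaperones, disulfide isomerases and degradation factors when proteins misfold in the lumen. PERK also feeds the integrated stress response, in which ATF4 raises amino acid synthesis and DDIT3 (CHOP).

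The 6-HD libraries held 21.9, 18.2 and 10.4 megareads counted to genes (replicates 1, 2 and 3), and the DMSO libraries 14.3, 24.7 and 33.4. No pair of the 24 libraries was identical. 6-HD replicate 3 stood apart: thinned to 9.69 megareads it showed 18851 genes with a read, fewer than the other 23 libraries (19386 to 24039). Among 9967 genes of at least 10 CPM (counts per megaread of the scaled library total), its median absolute log2 deviation from the mean of the other 2 libraries of its group was 0.155, against 0.112 and 0.107 for replicates 1 and 2. Among 4341 genes under 1 CPM it was 1.28, against 0.859 and 0.896. At 10 CPM or more, rotenone replicates 1, 2 and 3 (0.254, 0.161 and 0.156), MS275 replicate 3 (0.204) and methylmercury replicate 2 (0.162) deviated more from their groups. The rotenone libraries held 24.7, 9.69 and 12.4 megareads, and 19904, 19386 and 19545 genes at the equal depth. Counts by list and the fold changes of most named genes are also given without 6-HD replicate 3. Of the markers of the labelled cell type, the dopamine transporter SLC6A3, tyrosine hydroxylase TH, the dopamine receptor DRD2 and the midbrain factor EN1 had reads in every 6-HD and DMSO library, whereas the midbrain factors FOXA2 and LMX1A had 0 reads in all 6 libraries.

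Exposure to 6-HD raised 2 genes of the unfolded protein response, HSPA5 and MANF, and the test called no gene lower. HSPA5 encodes BiP, the main chaperone of the endoplasmic reticulum lumen, and MANF a small protein of the same compartment that is secreted under stress and protects dopaminergic neurons in rodents. The calls came from edgeR's quasi-likelihood F test at an adjusted p under 0.05 (Benjamini-Hochberg, all genes tested), and 2 of 18852 genes is 0.0106%. At an unadjusted p under 0.05 the same test found 575 genes higher (3.05%) and 499 lower (2.65%), 5.7% in all. Limma-voom called the same number, 2 higher and 0 lower, and DESeq2 called 10 higher and 2 lower. Changes were small across the transcriptome. Of 14511 genes with at least 1 CPM on average, 55 were at least 2-fold higher and 39 at least 2-fold lower by fitted value, the median absolute log2 fold change was 0.10, and the 95% interval of a typical gene reached 0.28 to either side of its estimate.

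HSPA5 (chromosome 9, 125234853 to 125241330, minus strand, GRCh38) had 219, 161 and 169 CPM in the 6-HD libraries, against 96.4, 115 and 119 CPM in the DMSO libraries. Every 6-HD library stood above every DMSO library, with replicate 1 the highest. It was 1.66-fold higher in 6-HD (log2 fold change 0.73 ± 0.13 SE; 95% interval 0.46 to 1.00; edgeR adjusted p = 0.0392). Without 6-HD replicate 3 the log2 fold change was 0.78 ± 0.14 and the edgeR adjusted p 0.0675, so the size held and the call did not. The call was also lost without 6-HD replicate 1 (0.58, edgeR adjusted p = 0.225) and without any 1 of the DMSO libraries (0.64 to 0.79, edgeR adjusted p = 0.0931 to 0.478). MANF (chromosome 3, 51385047 to 51389397, plus strand) had 107, 107 and 145 CPM in 6-HD, against 84.3, 74.0 and 73.2 CPM in DMSO. Its 6-HD libraries also stood above all DMSO libraries, and its highest value was that of replicate 3. The log2 fold change was 0.63 ± 0.11 (edgeR adjusted p = 0.0392), a 1.55-fold difference, and 0.47 ± 0.11 without replicate 3 (edgeR adjusted p = 0.281). MANF also lost its call without any 1 of the DMSO libraries (0.59 to 0.69, edgeR adjusted p = 0.0785 to 0.441).

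**Figure D1:**
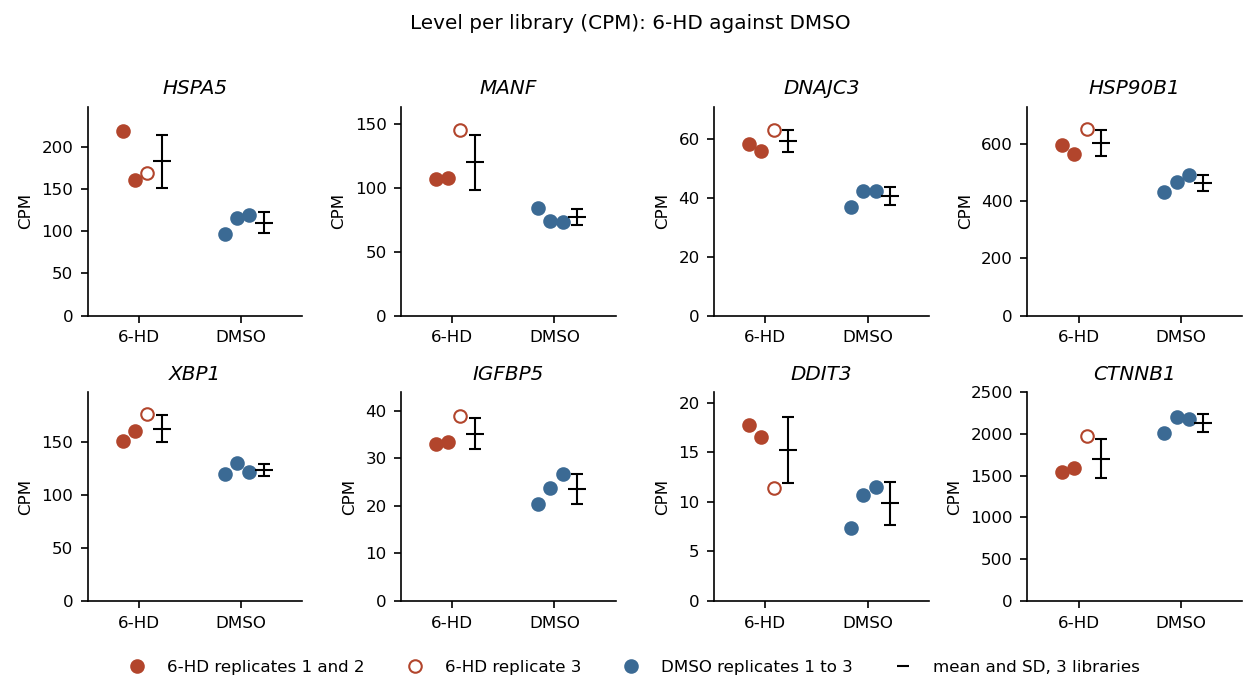
Level (CPM, vertical axes from 0) of 8 genes in each library, 6-HD to the left of DMSO; open circles mark 6-HD replicate 3, and the bar beside the points gives the mean and SD of 3 libraries. HSPA5, MANF, DNAJC3, HSP90B1, XBP1 and IGFBP5 were higher in every 6-HD library than in any DMSO library, CTNNB1 was lower, and DDIT3 in 6-HD replicate 3 (11.4 CPM) lay within the DMSO range (7.4 to 11.5 CPM).

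The promoters of both called genes are shown because the unfolded protein response acts on its targets through short elements near the start site: the endoplasmic reticulum stress element (ERSE: CCAAT, any 9 bases, then CCACG), ERSE-II (ATTGG, any 1 base, then CCACG) and the core bound by ATF6 or XBP1 (TGACGTGG). The windows run from 250 bases before the start to 50 after it (RefSeq, GRCh38.p14), 5′ to 3′ on the gene's strand, and capitals mark a match to a whole element on either strand; ERSE and ERSE-II share the letters CCACG. The HSPA5 window is chr9:125241294-125241593 (minus strand) and the MANF window chr3:51385041-51385340 (plus strand).
HSPA5: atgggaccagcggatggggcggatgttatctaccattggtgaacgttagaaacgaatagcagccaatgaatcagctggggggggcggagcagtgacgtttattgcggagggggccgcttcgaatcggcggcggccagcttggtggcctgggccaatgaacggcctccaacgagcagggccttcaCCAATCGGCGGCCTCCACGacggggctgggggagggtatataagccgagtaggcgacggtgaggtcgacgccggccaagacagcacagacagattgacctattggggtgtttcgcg
MANF: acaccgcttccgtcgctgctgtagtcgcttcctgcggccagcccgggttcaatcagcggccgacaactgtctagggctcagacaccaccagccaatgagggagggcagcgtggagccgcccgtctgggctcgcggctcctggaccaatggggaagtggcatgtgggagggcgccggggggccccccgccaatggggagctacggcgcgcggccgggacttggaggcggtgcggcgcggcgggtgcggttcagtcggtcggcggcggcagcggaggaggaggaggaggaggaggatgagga
The HSPA5 window held 1 ERSE, which began 66 bases before the start (chr9:125241391-125241409), and the MANF window held none of the 3 elements. Matches in other members of the response are given next, with the fixed bases in capitals, so that their letters can be compared; HSP90B1 had 1 in each orientation.
HSPA5 ERSE: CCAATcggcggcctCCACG
HSP90B1 ERSE at chr12:103930216-103930234: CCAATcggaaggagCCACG
HSP90B1 ERSE at chr12:103930321-103930339, opposite strand: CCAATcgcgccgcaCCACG
PDIA6 ERSE at chr2:10812853-10812871: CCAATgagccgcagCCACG
CRELD2 ERSE at chr22:49918554-49918572, opposite strand: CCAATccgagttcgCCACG
HERPUD1 ERSE-II at chr16:56932025-56932035: ATTGGgCCACG
SDF2L1 ERSE-II at chr22:21642114-21642124, opposite strand: ATTGGtCCACG
Of 27305 promoters, 22 held an ERSE (0.0806%), 17 an ERSE-II (0.0623%) and 208 the core (0.762%), and 246 held any of them (0.901%). Of 24 promoters matched for a list of 25 unfolded protein response genes, 9 held at least 1 (37.5%): CALR, CRELD2, HSP90B1, HSPA5 and PDIA6 an ERSE, HERPUD1, HYOU1 and SDF2L1 an ERSE-II, and DNAJC10 and HYOU1 the core. A match describes the letters and not binding. The elements were picked because they act in this response, so the shares are a description and not a test. Genes on either side of the range carried one: HSPA5 had the highest log2 fold change of the list, while CRELD2 (-0.03) did not differ beyond its error. DNAJC3, at 0.54, had none in this window, and sequence outside the windows was not searched.

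The 25 genes of the unfolded protein response all passed the filter. In 6-HD 2 of the 25 were called higher and 0 lower, 14 were higher and 0 lower at an unadjusted p under 0.05 (3.05% and 2.65% of all genes), and 14 were higher, and 0 lower, in every 6-HD library than in any DMSO library (5.85% and 7.13% of all genes). Their median log2 fold change was 0.19, against 0.00 over all genes tested. Without 6-HD replicate 3, 0 were called, 11 were higher and 0 lower at an unadjusted p under 0.05 (3.08% and 2.38% of all genes) and the median was 0.22. With 6-HD replicate 3 left out and the 2 groups fitted alone, 43 genes were called higher and 14 lower of 16623 (0.259% and 0.0842%, 0.343% in all), among them 5 of the list: HSPA5 (edgeR adjusted p = 0.00112), MANF (0.0107), DNAJC3 (0.0178), HSP90B1 (0.0277) and XBP1 (0.0331). That fit takes the spread from 5 libraries, the wider one from all groups.

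Among the chaperones, DNAJC3 (p58IPK), a co-chaperone of BiP that also restrains PERK, had 58.4, 55.9 and 63.2 CPM in 6-HD, against 37.0, 42.4 and 42.4 CPM in DMSO, with no overlap between the groups. Its log2 fold change was 0.54 ± 0.11 (edgeR adjusted p = 0.118) and 0.49 without replicate 3. HSP90B1 (GRP94), the HSP90 chaperone of the lumen, had 597, 565 and 654 CPM in 6-HD, against 434, 468 and 492 CPM in DMSO. The groups again did not overlap, and the log2 fold change was 0.38 ± 0.08 (edgeR adjusted p = 0.133; 0.32 without replicate 3). The remaining members of the list are described with their values known. DNAJB11, another BiP co-chaperone, stood at 62.3, 68.5 and 63.7 CPM in 6-HD and 53.4, 53.4 and 52.4 CPM in DMSO, a log2 fold change of 0.29 (unadjusted p = 0.00138, edgeR adjusted p = 0.772). SDF2L1, which supports BiP, stood at 23.8, 21.1 and 23.1 CPM in 6-HD and 16.4, 17.4 and 16 CPM in DMSO (log2 fold change 0.45, unadjusted p = 0.00521, edgeR adjusted p = 0.772). The lectin chaperones calreticulin (CALR, 0.25) and calnexin (CANX, 0.16) had positive values of smaller size, and the groups overlapped for CANX, where DMSO replicate 1 (1114 CPM) exceeded 6-HD replicate 1 (1096 CPM). HYOU1, an exchange factor for BiP, and DNAJB9, a co-chaperone that binds IRE1, had log2 fold changes of 0.13 and 0.16 with intervals that include 0. Without replicate 3 the values were 0.30 for DNAJB11, 0.44 for SDF2L1, 0.19 for CALR, 0.12 for CANX, 0.09 for HYOU1 and 0.12 for DNAJB9.

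Disulfide isomerases, which form and shuffle disulfide bonds in the lumen, lay in a narrow range of log2 fold changes, 0.27 for PDIA6, 0.26 for PDIA4 and 0.19 for PDIA3, and 0.09 for the reductase DNAJC10. PDIA6 had 178, 177 and 197 CPM in 6-HD, against 153, 155 and 149 CPM in DMSO, without overlap (unadjusted p = 0.000863, edgeR adjusted p = 0.655). Of the degradation factors that send misfolded proteins to the cytosol, HERPUD1 (0.29) and SEL1L (0.29) had unadjusted p-values of 0.00409 and 0.00674, whereas the ligase SYVN1 (0.16), SELENOS (0.03) and EDEM1 (0.01) had intervals that include 0. HERPUD1 stood at 116, 112 and 116 CPM in 6-HD and 89.1, 94.9 and 97 CPM in DMSO, and SEL1L at 133, 135 and 137 CPM in 6-HD and 113, 104 and 114 CPM in DMSO. Neither pair of groups overlapped, and neither gene passed over all genes (edgeR adjusted p = 0.772 and 0.773). Without replicate 3 the log2 fold changes were 0.22 for PDIA6, 0.23 for PDIA4, 0.11 for PDIA3, 0.28 for HERPUD1 and 0.28 for SEL1L, and SELENOS and EDEM1 turned to -0.03 and -0.04.

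The transcription factors and sensors gave a mixed picture. XBP1, whose mRNA is spliced by IRE1 to make the active factor, had 151, 160 and 176 CPM in 6-HD, against 119, 130 and 121 CPM in DMSO. Its groups did not overlap, with a log2 fold change of 0.39 ± 0.08 (edgeR adjusted p = 0.181; 0.33 and 0.58 without replicate 3), and gene counts do not separate its spliced from its unspliced form. The sensors ERN1 and ATF6 had log2 fold changes of 0.03 (95% interval -0.27 to 0.33) and -0.09 (-0.26 to 0.09). CREB3L2, a related membrane-bound factor, stood at 0.14 (-0.14 to 0.43). CRELD1 and CRELD2 stood at 0.03 and -0.03.

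**Figure D2:**
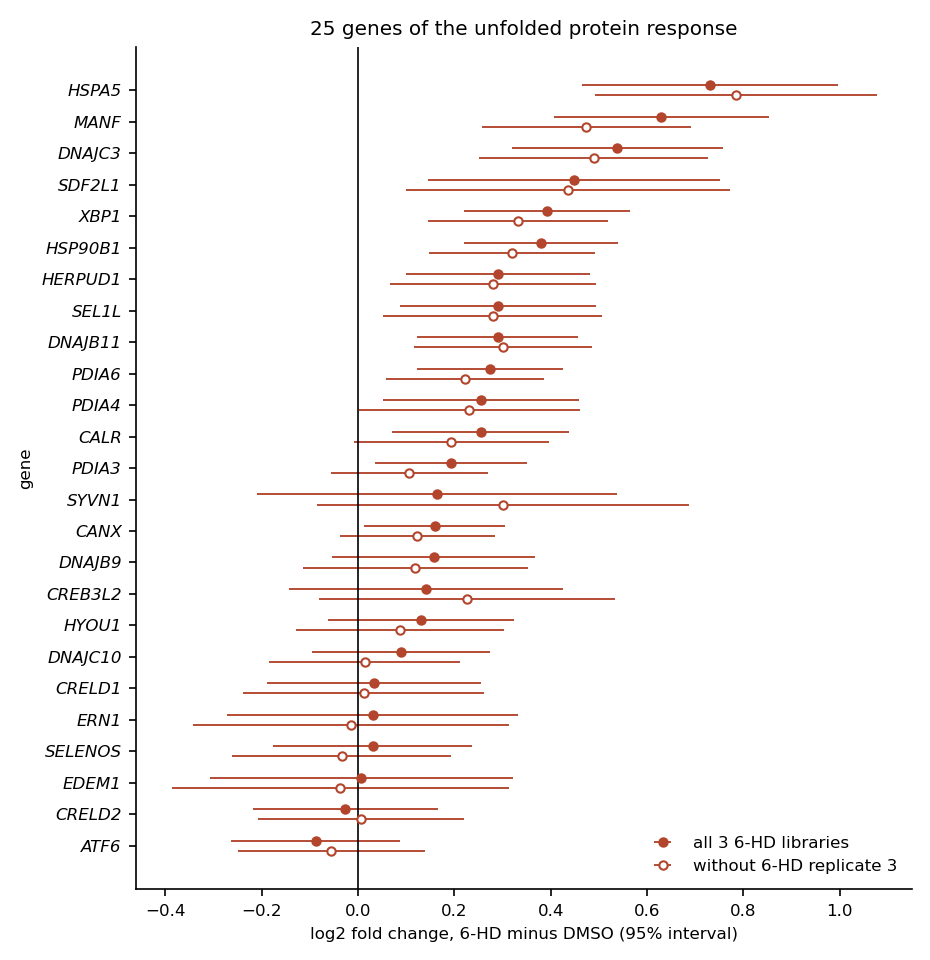
Log2 fold change, 6-HD minus DMSO, of the 25 unfolded protein response genes with its 95% interval, for all libraries (filled) and without 6-HD replicate 3 (open). HSPA5 and MANF are at the top at 0.73 and 0.63, 23 of the 25 estimates with all libraries are above 0, and ATF6 is the lowest at -0.09.

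Outside this list, IGFBP5, a secreted binding protein for insulin-like growth factors, had the smallest p-value among genes higher in 6-HD. It had 33.0, 33.5 and 39.0 CPM in 6-HD, against 20.4, 23.7 and 26.7 CPM in DMSO, without overlap (log2 fold change 0.56 ± 0.11, edgeR adjusted p = 0.118; 0.49 and 0.417 without replicate 3). MTMR10, a myotubularin-related protein, had 18.7, 25.3 and 19.4 CPM in 6-HD, against 11.7, 11.5 and 15.8 CPM in DMSO (log2 fold change 0.69 ± 0.15, edgeR adjusted p = 0.181; 0.74 without replicate 3). ELMOD1, a regulator of ARF-family GTPases, stood at 71.3, 81.4 and 56.5 CPM in 6-HD and 54.6, 52.7 and 58.1 CPM in DMSO. Its replicate 3 fell among the DMSO libraries, and its log2 fold change was 0.34 with that library and 0.47 without it (edgeR adjusted p = 0.772 and 0.281). FIBIN was near the detection limit, with 0.810, 1.75 and 0 CPM in 6-HD and 0.142, 0.202 and 0.355 CPM in DMSO.

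On the lower side the gene with the smallest p-value was CTNNB1 (chromosome 3, 41194741 to 41260096, plus strand), which encodes β-catenin, a protein of adherens junctions and of Wnt signalling. It had 1547, 1592 and 1971 CPM in 6-HD, against 2012, 2204 and 2176 CPM in DMSO. The groups did not overlap, but replicate 3 lay near the lowest DMSO library while replicates 1 and 2 lay well below it. With all libraries the log2 fold change was -0.32 ± 0.08 (edgeR adjusted p = 0.457), and without 6-HD replicate 3 it fell by 0.44 on the log2 scale (± 0.07 SE, edgeR adjusted p = 0.0292). It was then the 1 gene called, 0.00508% of 19668, with 0 called higher. At an unadjusted p under 0.05 there were 606 higher (3.08%) and 469 lower (2.38%). DESeq2 on the same 23 libraries called 11 higher and 9 lower. A lower level of CTNNB1 was not particular to 6-HD. Against the same DMSO libraries it was called lower in rotenone (-0.45, edgeR adjusted p = 0.00033), methylmercury (-0.40, 0.012) and MPP (-0.24, 0.0411). In ziram (-0.18) and paraquat (-0.12) it was not called, and in MS275 it was called higher (0.66, edgeR adjusted p = 3.89e-08).

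The next lower genes were small in size and not called. ZNF229, a zinc finger protein, stood at 18, 17.7 and 14.4 CPM in 6-HD and 26.4, 24.2 and 21.1 CPM in DMSO (log2 fold change -0.50, edgeR adjusted p = 0.457). MISP3 stood at 16.6, 16 and 14.7 CPM in 6-HD and 24.8, 23.2 and 21.6 CPM in DMSO (-0.55, edgeR adjusted p = 0.573). Neither gene overlapped between the groups. SPRY4, a feedback inhibitor of receptor tyrosine kinase signalling, stood at 9.94, 10.6 and 13.1 CPM in 6-HD and 13.7, 18.3 and 16.9 CPM in DMSO (-0.56 with all libraries and -0.67 without replicate 3, edgeR adjusted p = 0.573 and 0.281). The sodium channel SCN2A stood at 12.7, 10.5 and 14.7 CPM in 6-HD and 17.1, 18.6 and 18.4 CPM in DMSO (-0.53 and -0.64, edgeR adjusted p = 0.59 and 0.282). RAB2B, a small GTPase of Golgi traffic (-0.30), PARM1 (-0.27) and C18orf8 (-0.15) completed the set, and for C18orf8 replicate 3 (647 CPM) lay above every DMSO library (609 to 638 CPM) while replicates 1 and 2 (526 and 505 CPM) lay below them. ELMOD1, FIBIN, PARM1, SCN2A and C18orf8 were named from the fit without replicate 3, so the nearness of that library to DMSO in them is no result. Against the same DMSO libraries SCN2A was called lower in MS275 (-0.84), MPP (-0.58) and rotenone (-0.47). PARM1 was called lower in MS275 (-0.39) and rotenone (-0.40), and C18orf8 lower in MS275 (-0.40) but higher in rotenone (0.29). ZNF229 and RAB2B were called lower in MS275 (-0.41 and -0.25), MISP3 in MPP (-0.53), and SPRY4 in no other group.

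Targets of the integrated stress response were counted next, since PERK joins it to the unfolded protein response. For this list and those below, 3.05% of all genes were higher and 2.65% lower at an unadjusted p under 0.05. Without 6-HD replicate 3 these shares were 3.08% and 2.38%. Of 39 listed genes 37 passed the filter and 0 were called; 8 were higher and 0 lower at an unadjusted p under 0.05, with a median log2 fold change of 0.10, and without 6-HD replicate 3 the figures were 8, 0 and 0.14. DDIT3 (CHOP), a factor tied to cell death under prolonged stress, had 17.7, 16.6 and 11.4 CPM in 6-HD, against 7.4, 10.7 and 11.5 CPM in DMSO. Replicates 1 and 2 were above DMSO and replicate 3 within it, and the log2 fold change was 0.62 with all libraries and 0.77 without replicate 3 (edgeR adjusted p = 0.772 and 0.364; 0.0301 in the fit of those 5 libraries alone). The other 7 were INHBE, GARS, ATF5, ASNS, WARS, ATF4 and SLC7A5, with log2 fold changes between 0.17 and 0.38 and edgeR adjusted p-values between 0.829 and 0.871. ATF4 itself stood at 491, 490 and 548 CPM in 6-HD and 428, 462 and 452 CPM in DMSO. Targets that respond strongly in many cells, TRIB3 (-0.10), CHAC1 (0.03) and ATF3 (0.09), had values near 0, with intervals of -0.40 to 0.19, -0.40 to 0.45 and -0.35 to 0.54.

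Markers of dividing cells were counted in the same way. Of 25 listed, 25 passed the filter, 0 were called, 7 were higher and 0 lower at an unadjusted p under 0.05, and the median log2 fold change was 0.21; without 6-HD replicate 3 the figures were 9, 0 and 0.24. Summed over the list, as CPM of the raw library totals, they gave 1403, 1464 and 1271 in 6-HD, against 1178, 1201 and 1285 in DMSO. Replicates 1 and 2 were thus above every DMSO library. Replicate 3 (1271) lay just below DMSO replicate 3 (1285), and their order can differ with TMM scaling, which these sums lack. MCM5, a subunit of the replicative helicase, had 35.6, 40.0 and 38.1 CPM in 6-HD, against 28.5, 31.9 and 27.9 CPM in DMSO, without overlap (log2 fold change 0.36 with and without replicate 3, unadjusted p = 0.00321 with it, edgeR adjusted p = 0.772). Topoisomerase TOP2A had 182, 182 and 149 CPM in 6-HD, against 135, 131 and 156 CPM in DMSO, with replicate 3 inside the DMSO range (0.28, edgeR adjusted p = 0.841; 0.37 and 0.799 without replicate 3). MCM3, MCM7, TYMS, MKI67 and CCNB2 made up the rest of the 7, with log2 fold changes of 0.19 (MCM7) to 0.70 (TYMS). In bulk RNA more dividing cells and more of these transcripts per cell cannot be told apart. Whether a change in the number of dividing cells takes part in any of the differences above was not tested.

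**Figure D3:**
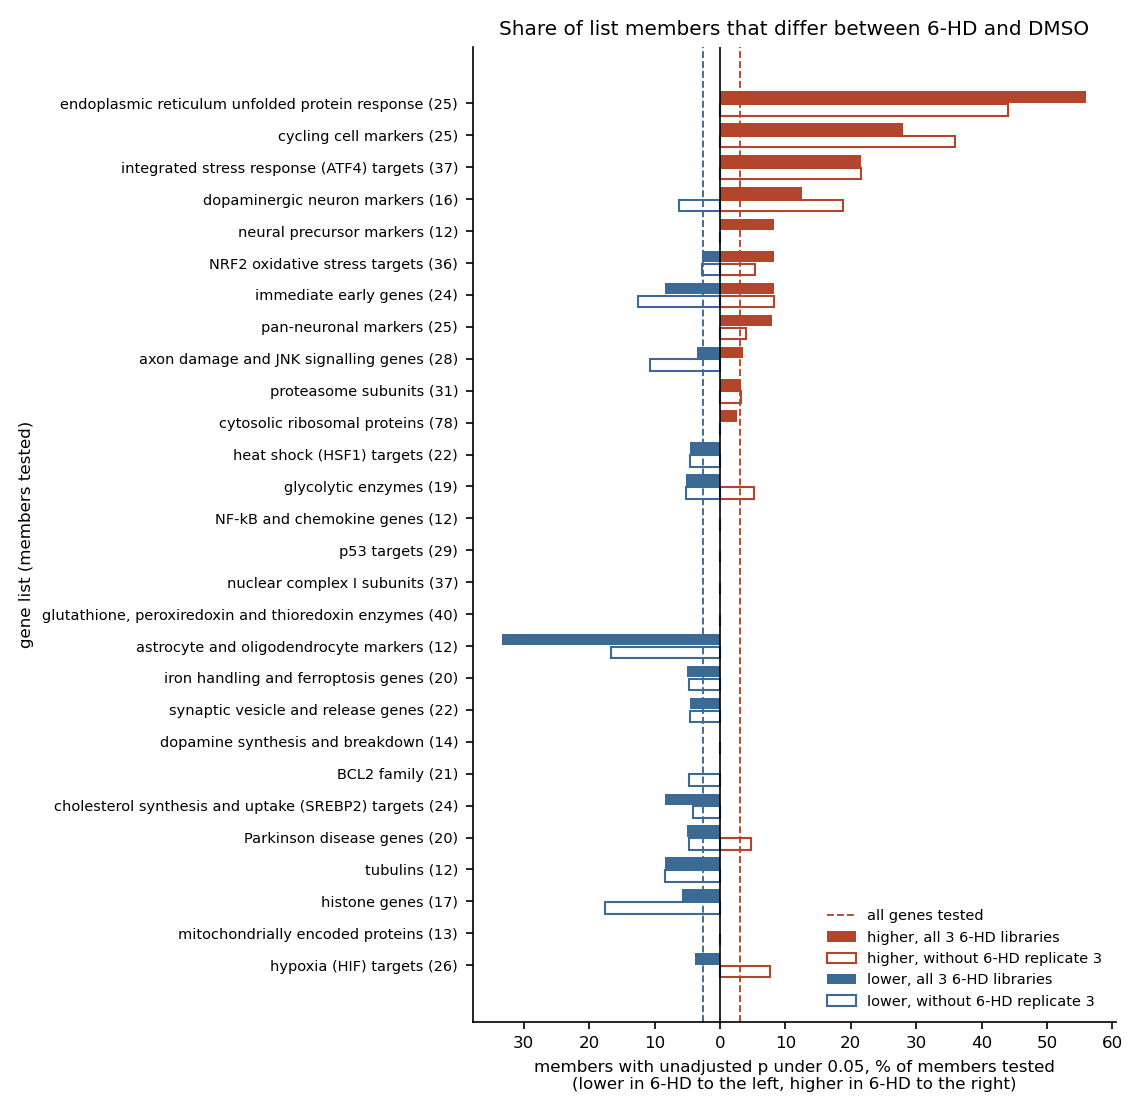
Share of the members tested with an unadjusted p under 0.05, higher in 6-HD to the right and lower to the left (% of members tested, number of members with all libraries in parentheses), with all libraries (filled bars) and without 6-HD replicate 3 (open bars), for the lists with at least 10 members tested. Dashed lines mark 3.05% higher and 2.65% lower over all genes; the unfolded protein response stands at 56.0%, cycling cell markers at 28.0% and integrated stress response targets at 21.6% higher.

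Other cell types the culture could hold showed no called marker. The sums over marker lists below are CPM of the raw library totals, without TMM scaling. Pan-neuronal markers summed to 12582, 13062 and 13591 CPM in 6-HD, against 13748, 13035 and 12372 CPM in DMSO, and the groups overlapped. Of 15 astrocyte and oligodendrocyte markers 12 passed the filter and 4 were lower at an unadjusted p under 0.05: CNP (-0.30), SLC1A2 (-0.41), OLIG1 (-0.24) and OLIG2 (-0.23); without 6-HD replicate 3 there were 2. Their list summed to 264, 252 and 262 CPM in 6-HD, against 286, 309 and 294 CPM in DMSO, so every 6-HD library was lower, while SOX10 and MOG had 0 reads in all 6 libraries. Neural precursor markers summed to 329, 328 and 299 CPM in 6-HD, against 302, 306 and 301 CPM in DMSO. The 10 microglia and macrophage markers summed to 2.97, 2.97 and 6.82 CPM in 6-HD and 1.54, 2.27 and 2.46 CPM in DMSO, and the value of replicate 3 was mostly PTPRC, the leukocyte antigen CD45, at 5.46 CPM against 0.900 and 1.43 CPM in the other 6-HD libraries. Fibroblast markers summed to 52.7, 51.2 and 32.5 CPM in 6-HD, against 48.6, 45.1 and 50.4 CPM in DMSO. Within them LUM, the matrix proteoglycan lumican, had 3.69, 4.33 and 4.41 CPM in 6-HD and 2.06, 2.02 and 2.34 CPM in DMSO, without overlap (log2 fold change 0.94, unadjusted p = 0.00034, edgeR adjusted p = 0.573; 0.89 without replicate 3), and THY1 had 0 reads in all 6 libraries. The part these markers have in the results above was not tested.

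The route by which 6-HD acts on dopaminergic neurons gave no called gene. SLC6A3, the dopamine transporter, had 760, 789 and 612 CPM in 6-HD, against 697, 578 and 632 CPM in DMSO. Replicates 1 and 2 were above every DMSO library and replicate 3 lay among them, with a log2 fold change of 0.18 (95% interval -0.05 to 0.41; edgeR adjusted p = 0.896), and 0.28 without replicate 3 (edgeR adjusted p = 0.862). SLC18A2, the vesicular transporter that stores dopamine, was close to 0, at 0.720, 0.439 and 0 CPM in 6-HD and 0.0711, 0.444 and 0.444 CPM in DMSO. TH, which catalyses the first step towards dopamine, had 46.4, 49.7 and 43.1 CPM in 6-HD, against 55.2, 51.4 and 45.9 CPM in DMSO, with overlap and an interval of -0.40 to 0.15 (-0.38 to 0.23 without replicate 3). DDC, which makes dopamine from DOPA, had 2.74, 1.48 and 4.41 CPM in 6-HD and 2.56, 3.39 and 2.39 CPM in DMSO, and its interval ran from -0.67 to 0.68 (-1.06 to 0.29 without replicate 3). Of 16 genes of dopamine synthesis and breakdown 14 passed the filter and 0 had an unadjusted p under 0.05 in either direction. Of 20 dopaminergic markers 16 passed, and 2 were higher at an unadjusted p under 0.05: NR4A2, a factor needed for these neurons, at 7.24, 4.55 and 4.69 CPM in 6-HD and 2.99, 3.51 and 4.41 CPM in DMSO, and the potassium channel KCNJ6 at 6.12, 7.62 and 4.41 CPM in 6-HD and 4.62, 3.76 and 3.67 CPM in DMSO. Their edgeR adjusted p was 0.841 each. Without replicate 3 there were 3 higher (SLC6A3, NR4A2 and KCNJ6) and 1 lower (RET, at -0.28) at an unadjusted p under 0.05.

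Oxidant defence genes moved little. Of 38 NRF2 targets 36 passed the filter and 0 were called; 3 were higher and 1 lower at an unadjusted p under 0.05, with a median log2 fold change of 0.07 (2, 1 and 0.05 without replicate 3). MAFG, the small MAF partner of NRF2, had 61.8, 62.5 and 65.9 CPM in 6-HD, against 48.3, 54.7 and 53.1 CPM in DMSO, without overlap (log2 fold change 0.28, unadjusted p = 0.00275, edgeR adjusted p = 0.772; 0.25 without replicate 3). UGDH and the quinone reductase NQO1, which detoxifies quinones, were the other higher genes (0.31 and 0.28, and 0.30 and 0.15 without replicate 3). HMOX1, the haem oxygenase that oxidants usually raise, had 26.9, 29.9 and 31.7 CPM in 6-HD, against 26.0, 24.0 and 24.3 CPM in DMSO, and its interval of -0.09 to 0.60 included 0 (-0.19 to 0.59 without replicate 3). Ferritin heavy chain FTH1, which stores iron, was the lower gene at 38.3, 34.6 and 24.9 CPM in 6-HD and 43.8, 56.1 and 49.6 CPM in DMSO (log2 fold change -0.60, edgeR adjusted p = 0.772; -0.45 without replicate 3); FTH1 has many near-identical copies, so its share of reads is uncertain. Of 42 glutathione, peroxiredoxin and thioredoxin enzymes 40 passed and 0 had an unadjusted p under 0.05, and the cystine importer SLC7A11 stood at 0.41 (-0.14 to 0.97). MT1G, the metallothionein named in the series title, had 0, 5 and 59 reads in 6-HD and 0, 1 and 1 in DMSO (edgeR adjusted p = 0.851, and 0.994 without replicate 3), so nearly all its reads came from replicate 3.

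Lists tied to cell death, growth signals and energy showed no called gene either. At an unadjusted p under 0.05 there were 0 of 29 p53 targets and 0 of 21 BCL2 family genes in either direction (1 BCL2 family gene lower without 6-HD replicate 3), and 0 of 13 mitochondrially encoded proteins. HRK, a death-promoting BCL2 family member of neurons, stood at 27.3, 30.0 and 22.5 CPM in 6-HD and 26.9, 29.5 and 24.8 CPM in DMSO, an interval of -0.27 to 0.24. Among immediate early genes 2 of 24 were higher and 2 lower (2 and 3 without replicate 3), among them the MAP kinase phosphatase DUSP1 at 50.5, 44.5 and 45.9 CPM in 6-HD and 54.9, 60.2 and 58.2 CPM in DMSO, without overlap (log2 fold change -0.30, unadjusted p = 0.00313, edgeR adjusted p = 0.772; -0.28 without replicate 3). Of 24 cholesterol genes 2 were lower, CYP51A1 (-0.30) and EBP (-0.22), against 1 without replicate 3. Of 26 hypoxia targets, with a median of -0.13, 1 was lower and 0 higher at an unadjusted p under 0.05, while without 6-HD replicate 3 these were 0 and 2.

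The levels of the leading genes in the other toxicant groups are given side by side, and all toxicants share the same DMSO libraries. HSPA5 averaged 183 ± 31.5 CPM in 6-HD, 248 ± 36.7 in MS275, 121 ± 15.9 in rotenone, 107 ± 17.2 in paraquat, 110 ± 4.47 in methylmercury, 97.5 ± 4.2 in ziram and 62.4 ± 11.2 in MPP, against 110 ± 12.1 CPM in DMSO (SD, n = 3 each). MS275 was thus the highest and 6-HD the next, with the groups from rotenone to ziram within their spread of DMSO, and MPP the lowest. MANF averaged 120 ± 21.7 CPM in 6-HD, 124 ± 14.4 in MS275, 103 ± 8.93 in rotenone, 98.2 ± 9.91 in methylmercury, 79.5 ± 1.98 in paraquat, 66.2 ± 3.41 in ziram and 46.9 ± 3.74 in MPP, against 77.2 ± 6.18 CPM in DMSO. DNAJC3 was the highest in 6-HD at 59.2 ± 3.73 CPM, with 41.5 ± 2.54 in MS275, 41.5 ± 6.73 in rotenone, 41.1 ± 1.12 in paraquat, 39.4 ± 3.53 in methylmercury, 37.6 ± 2.26 in ziram and 21.5 ± 1.61 in MPP, against 40.6 ± 3.11 CPM in DMSO. The doses differed, and the order among the toxicants was not tested, apart from the direct comparison with rotenone. Each toxicant was tested against DMSO. HSPA5 was called higher in MS275 (1.16, edgeR adjusted p = 2.08e-08) and lower in MPP (-0.83, 6.78e-05). MANF was called higher in MS275 (0.68, 6.41e-06) and in rotenone (0.41, 0.0228), and lower in MPP (-0.72, 4.1e-05). DNAJC3 was called lower in MPP (-0.92, 8.37e-07) and was not called in the other groups.

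**Figure D4:**
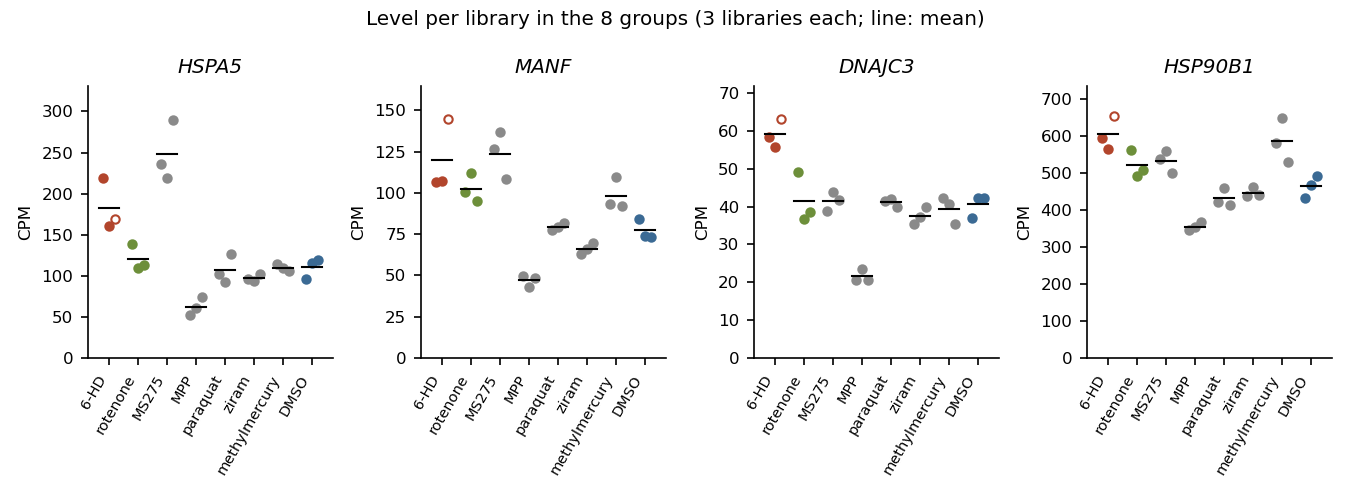
Level (CPM, vertical axes from 0) of HSPA5, MANF, DNAJC3 and HSP90B1 in each of the 3 libraries of the 8 groups, 6-HD at the left and DMSO at the right; lines mark the mean and the open circle 6-HD replicate 3. HSPA5 averaged 183 CPM in 6-HD against 110 CPM in DMSO, and all 3 6-HD libraries of DNAJC3 (55.9 to 63.2 CPM) lie above every other library.

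Set directly against rotenone, the complex I inhibitor given at the same dose and for the same time, 6-HD differed in many more genes than from DMSO. Rotenone itself differed from DMSO in 521 genes higher and 520 lower of 18852. A gene higher or lower in 6-HD than in rotenone therefore need not differ between 6-HD and DMSO. Of 18852 genes, 543 were higher and 533 lower in 6-HD (edgeR adjusted p under 0.05; 2.88% and 2.83%, 5.71% in all), and without 6-HD replicate 3 there were 444 and 383 of 19668 (2.26% and 1.95%, 4.2% in all). Of the 34 lists the tubulins had the highest share called, with 11 of 12 tested higher in 6-HD. Their median log2 fold change was 1.06 against 0.01 over all genes (11 and 1.05 without 6-HD replicate 3). Rotenone also binds tubulin, and whether that bears on these transcripts was not tested. TUBA1A, the main α-tubulin of developing neurons, had 9352, 9514 and 11116 CPM in 6-HD, against 3117, 3747 and 3581 CPM in rotenone (log2 fold change 1.52 ± 0.08, edgeR adjusted p = 1.64e-14), and 11626, 11354 and 10742.5 CPM in DMSO. TUBB2A, a neuronal β-tubulin, had 321, 325 and 375 CPM in 6-HD, against 100 to 129 CPM in rotenone (1.55, edgeR adjusted p = 7.47e-13). Tubulin genes resemble each other closely, so how their reads were divided is uncertain.

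In the unfolded protein response 3 of 25 members were called against rotenone, all higher in 6-HD, beside 2.88% of all genes; 2 were called without 6-HD replicate 3, 5 without rotenone replicate 1 and 1 with these 2 groups fitted alone. HSPA5 was higher in 6-HD than in rotenone, where it had 139, 110 and 114 CPM (log2 fold change 0.60 ± 0.13, edgeR adjusted p = 0.00524; 0.00748 without 6-HD replicate 3), and without 6-HD replicate 1 it lost its call (0.45, edgeR adjusted p = 0.054). DNAJC3 was higher by 0.50 ± 0.11, with 49.2, 36.7 and 38.6 CPM in rotenone (edgeR adjusted p = 0.00472; 0.0233 without 6-HD replicate 3), and HERPUD1 by 0.32 (edgeR adjusted p = 0.0381; 0.0833 without it). HERPUD1 also lost its call without 6-HD replicate 1 or 2 and without rotenone replicate 1 or 2 (edgeR adjusted p = 0.0685 to 0.135). MANF, with 100, 112 and 94.8 CPM in rotenone, did not pass (0.22 ± 0.11, 95% interval -0.0032 to 0.44, edgeR adjusted p = 0.248).

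Integrated stress response targets gave 12 higher and 1 lower of 37 (14 and 1 without 6-HD replicate 3). Over all genes 2.88% were called higher and 2.83% lower (2.26% and 1.95% without 6-HD replicate 3). These shares also stand beside the counts of hypoxia, cycling and mitochondrial genes below. The largest were STC2, a secreted glycoprotein (1.17), the mTORC1 inhibitor DDIT4 (1.08), the folate enzyme ALDH1L2 (1.05) and CBS, of cysteine synthesis (1.00), and the lower one was PPP1R15A (-0.39), which restores translation. Calls were lost for STC2 without 6-HD replicate 1 (edgeR adjusted p = 0.0505), for CBS without 6-HD replicate 2 (0.0653) or rotenone replicate 2 (0.0556), and for PPP1R15A without 6-HD replicate 1 (0.0779) or rotenone replicate 2 (0.0603) or 3 (0.117). DDIT4 had 33.6, 32.4 and 26.4 CPM in 6-HD, against 10.8, 17.1 and 17 CPM in rotenone (edgeR adjusted p = 0.000242), and 35.1, 33.4 and 41.2 CPM in DMSO. TXNIP and ARRDC4, arrestins that follow glucose use, were higher in 6-HD by 0.94 and 1.27 (edgeR adjusted p = 4.25e-07 and 1.01e-06). 6 of 26 hypoxia targets were higher and 0 lower (7 and 1 without 6-HD replicate 3), as were 6 of 25 cycling markers (4 and 0 without it). Of the 13 mitochondrially encoded proteins 3 were higher, MT-ND1 (0.86), MT-ND2 (0.88) and MT-ND5 (0.62), all subunits of complex I, and without 6-HD replicate 3 only MT-ND2 was called. Without rotenone replicate 1 none of these 3 was called (edgeR adjusted p = 0.0688 to 0.1005). MT1G had 0, 0.274 and 5.65 CPM in 6-HD, against 18.5, 1.15 and 1.48 CPM in rotenone, and MT2A had 0.585, 0.548 and 3.26 CPM in 6-HD, against 10, 0.525 and 3.12 CPM in rotenone. In both, 6-HD replicate 3 and rotenone replicate 1 were the highest of their groups, and the groups overlapped. MT1G stood at -2.66 (edgeR adjusted p = 0.0614) with all libraries, at -6.05 (0.00667) without 6-HD replicate 3, where its 6-HD reads numbered 0 and 5, and at 0.00040 (1) without rotenone replicate 1. MT2A was called with all libraries (-2.22, edgeR adjusted p = 0.0124) but not without rotenone replicate 1 (-0.76, 0.45), 6-HD replicate 1 (0.0932) or 6-HD replicate 2 (0.0837).

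Genes lower in 6-HD than in rotenone included HRK and members of the JNK pathway. HRK had 27.3, 30.0 and 22.5 CPM in 6-HD, against 122, 121 and 114 CPM in rotenone (log2 fold change -2.15 ± 0.13, edgeR adjusted p = 4.18e-13). CREB5, a basic leucine zipper factor, had 18.1, 19.1 and 13.4 CPM in 6-HD, against 71.2, 61.3 and 68.7 CPM in rotenone (-1.98, edgeR adjusted p = 4.21e-11), and the growth factor BDNF 1.12, 2.25 and 0.958 CPM against 6.19, 3.99 and 3.94 CPM (-1.69, edgeR adjusted p = 0.00413). Of 28 axon damage and JNK genes 5 were lower and 0 higher, beside 2.83% and 2.88% of all genes. The 5 were DUSP16 (-1.44), DUSP1 (-0.89), JUN (-0.84), DUSP8 (-0.68) and MAPK10 (-0.31). DUSP8 lost its call without 6-HD replicate 3 (edgeR adjusted p = 0.0841) or rotenone replicate 3 (0.0509), and MAPK10 without 6-HD replicate 1 (0.0737). Genes of a few CPM were also called, PDE10A (-3.98), ARHGAP29 (-2.08) and BTC (-1.83) lower and TUBB1 (2.35), MSTN (2.29), ARHGAP9 (2.22), KLHL30 (1.96), MASP2 (1.90) and HIST1H3F (1.84) higher. Without 6-HD replicate 3 BTC and HIST1H3F lost their calls (edgeR adjusted p = 0.124 and 0.0666). ARHGAP29, MSTN and KLHL30 lost theirs without 6-HD replicate 2 (0.0566, 0.0821 and 0.328), and so did HIST1H3F (0.135). Without rotenone replicate 1 ARHGAP29, MSTN and HIST1H3F were not called (0.0588, 0.0602 and 0.0778). BTC and KLHL30 were not called without rotenone replicate 2 (0.0629 and 0.127), BTC, KLHL30 and HIST1H3F not without rotenone replicate 3 (0.0904, 0.110 and 0.116), and BTC not without 6-HD replicate 1 (0.141). SLC6A3 was lower in 6-HD than in rotenone, where it had 840, 1129 and 1175 CPM (-0.54 ± 0.11, edgeR adjusted p = 0.00385; 0.0405 without 6-HD replicate 3). With the libraries of these 2 groups fitted alone the counts were 45 higher and 81 lower, and without rotenone replicate 1 they were 858 and 787.

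**Figure D5:**
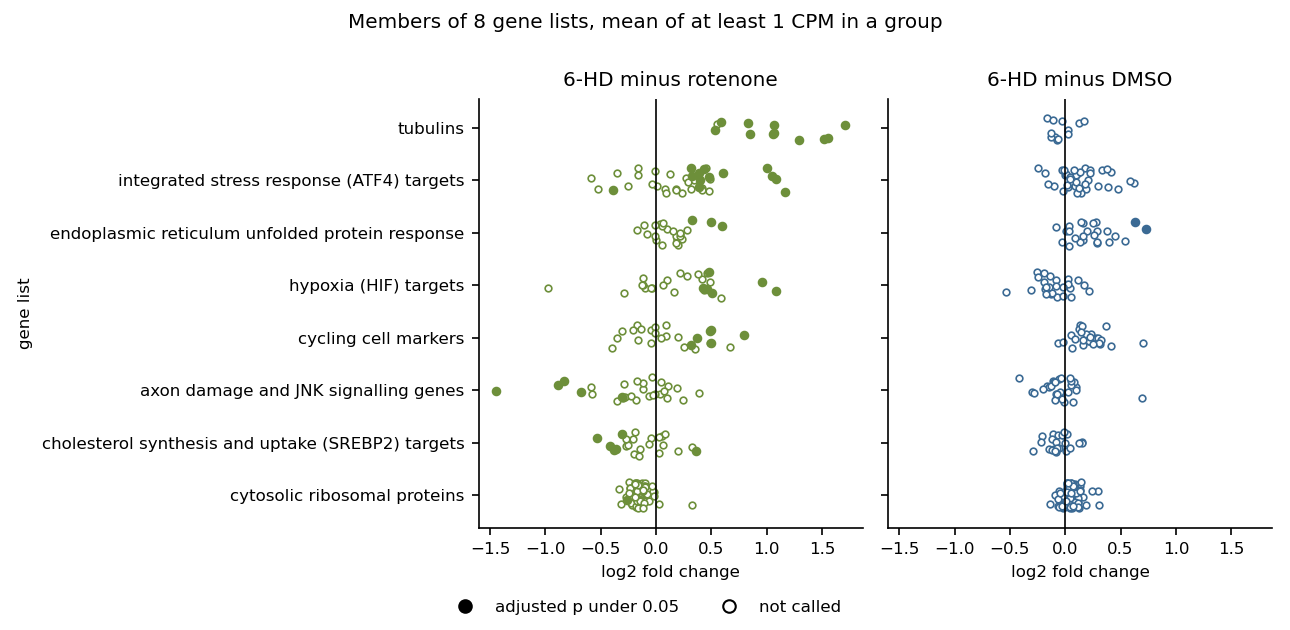
Log2 fold change of the members of 8 gene lists, 6-HD minus rotenone (left) and 6-HD minus DMSO (right), for members with a mean of at least 1 CPM in a group; filled points have an adjusted p under 0.05. The tubulins lie right of 0 on the left panel (11 of 12 called) and around 0 on the right panel (0 of 12 called), and the filled points on the right panel are HSPA5 and MANF.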

How the data were processed

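RNA was sequenced from LUHMES-derived neurons. The authors deposited raw counts per gene for 58051 genes and 24 libraries and a normalized matrix, which was not used. STAR, HTSeq, DESeq and the GRCh38 build are named, without roles, per the submitters' processing notes; versions, annotation, strand setting and the handling of multiply mapped reads are not stated there. 0 count columns lacked a sample. The 266 genes without a name held 0.00492% of counts. Coordinates came from GENCODE 29 (57447 genes matched by identifier).

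Counts were fitted with edgeR 4.0.16 (R 4.3.3; TMM scaling, default expression filter, 1 coefficient for each of 8 groups, 16 residual degrees of freedom), with limma 3.58.1 and DESeq2 1.42.0 as alternatives. CPM uses the TMM-scaled totals, except in the sums over marker lists, which use the raw library totals. Totals of 10.4 to 33.4 megareads in the 6 libraries compared set the precision, and the p-values measure the spread between triplicate cultures. The procedure was tested on simulated data with planted changes larger than those of HSPA5 and MANF. That test therefore does not show how often changes of their size are found.

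Members, the 34 gene lists and the tests were chosen with earlier results of these data known. Named genes were up to 12 per direction called with at least 2 CPM and no overlap between groups (filled to 5 by lowest p, then named as not called), up to 4 per list by lowest p, up to 6 per direction against rotenone, and SLC6A3, SLC18A2, TH, DDC and MT1G; further genes were named after their values were seen, and 1 gene is not reported here. Python 3.11.15, pandas 2.3.3 and matplotlib 3.10.9 made tables and figures.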

Additional observations from a re-analysis of the deposited data

How the results depend on the processing

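For 6-HD minus DMSO, of 1398 comparisons over 78 named genes and 18 settings, 1326 kept direction and side of the threshold, 15 lost a call, 29 gained one and 28 changed sign. All 15 losses fell on the 2 called genes, HSPA5 in 7 of 18 settings and MANF in 8 of 18. The other named genes had no call to lose, so the total of 1326 says little about these 2 calls. The 6-HD minus DMSO counts of genes higher and lower (2 and 0) did not change with RLE size factors, library totals, a filter of 1 CPM, limma-voom or the robust fit. They were 13 and 5 with no filter, 10 and 2 with DESeq2, 1 and 0 with the 2 groups alone, and 0 and 0 at an adjusted p under 0.01. Leaving out each replicate gave 0 to 2 higher and 0 to 1 lower, and the 2 groups alone without 6-HD replicate 3 gave 43 and 14. Unfolded protein response genes called numbered 4 with no filter, 7 with DESeq2, 1 with the 2 groups alone, 0 at 0.01, 0 to 2 on leaving out each replicate, and 5 in the 2 groups alone without 6-HD replicate 3. The causes of these differences were not tested.

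Whether the replicate numbers pair the cultures is not known. Same-numbered 6-HD and DMSO libraries correlated at -0.0151, 0.0027 and -0.0285 in their deviations from the group means, over all genes tested. Genes under 1 CPM deviated more than those of at least 10 CPM and weigh most in these values. The values therefore cannot exclude pairing. With the replicate block the counts were 0 and 0 in all libraries (0 unfolded protein response genes) and 2 and 1 in the 2 groups alone (1 unfolded protein response gene), and 447 and 455 for 6-HD minus rotenone. Without 6-HD replicate 3, in alternatives chosen after seeing the data, the counts were 11 and 9 with DESeq2 and 1 and 1 with the block.

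For 6-HD minus rotenone the 2 groups alone gave 45 higher and 81 lower, and leaving out each replicate 355 to 858 and 310 to 787. Of 360 comparisons over 36 named genes and 10 settings, 289 kept direction and side of the threshold, 67 lost a call, 3 gained one and 1 changed sign, MT1G, at -6.05 to 0.00040 on leaving out each replicate. For 6-HD minus DMSO these genes changed sign.
CRELD2 was 0.0065 in the 2 groups alone without 6-HD replicate 3 and -0.088 to 0.012 on leaving out each replicate, SELENOS -0.035 and -0.034 to 0.089, and ERN1 -0.013 and -0.026 to 0.097. CRELD1 was -0.016 to 0.10 on leaving out each replicate. EDEM1 was -0.00039 with no filter, -0.048 with limma-voom, -0.0026 with the replicate block, -0.041 in the 2 groups alone without 6-HD replicate 3 and -0.17 to 0.20 on leaving out each replicate. DDC was -0.0052, -0.16, -0.017 (-0.040 with the block in the 2 groups alone), -0.38 and -0.39 to 0.33 in the same order, and SLC18A2 -0.035 with limma-voom and -0.42 to 0.76 on leaving out each replicate.
Genes under 1 CPM rest on few reads.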
